A study of Mus musculus with 10 samples.

Results

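Osteopontin, the secreted phosphoprotein encoded by Spp1, and the genes of its receptors were followed through the cell classes of the old mouse inner ear. The 7 genes were Spp1, the hyaluronan receptor gene Cd44 and the integrin chain genes Itgav, Itgb1, Itgb3, Itgb5 and Itga9, taken by symbol from the 32285 genes listed in the deposited tables. All 7 had at least 1 unique molecular identifier (UMI, a tag that counts one captured mRNA molecule once) in the cells kept, as did 23880 genes in all. The cells came from whole cochlear and vestibular organs of wild-type CBA/J mice aged 22 months, dissociated with collagenase and captured in droplets for single-cell sequencing from the 3′ end of each mRNA. There were 5 libraries per organ, labelled replicates 1 to 5, and each pooled 7 to 8 mice, so that a library is an average over animals. Young mice of the same study were not analysed here, and none of the values below is a comparison between ages.

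Osteopontin is an acidic protein of the SIBLING family, first known from mineralised bone, where osteoclasts hold on to it. Its Arg-Gly-Asp (RGD) motif is bound by integrins made of the αv chain with β1, β3 or β5, thrombin cleavage exposes a neighbouring site for α9β1, and CD44 binds it by another route. Macrophages and T cells secrete it during inflammation, and in the vestibular sensory epithelium it is used as an antibody marker of type I hair cells (HCs), the flask-shaped cells enclosed by a calyx nerve ending. Type II HCs are cylindrical and contacted by bouton endings, and the cochlea holds inner and outer HCs (IHCs and OHCs) instead.

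The stretch of Spp1 that carries the RGD codons is shown because it is the point at which the ligand meets the integrins measured here. It lies in exon 6 of 7 of transcript Spp1-201, on the plus strand of the mouse genome build GRCm38 (mm10), at chr5:104439466-104439525. The capitals mark the codons for Arg, Gly and Asp, at positions 104439481 to 104439489 of a coding sequence of 294 codons.
Spp1 coding stretch, 5′ to 3′: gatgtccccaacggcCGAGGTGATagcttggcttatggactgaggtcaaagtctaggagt
The codons after the capitals encode the stretch read by α9β1 once thrombin has cut the protein. In GRCm38, Spp1 spans 104435118 to 104441050 on chromosome 5 (plus strand) and Cd44 spans 102811141 to 102901665 on chromosome 2 (minus strand). Itgav lies on chromosome 2 from 83724397 to 83806916, Itgb1 on chromosome 8 from 128685654 to 128733200, and Itgb3 on chromosome 11 from 104608000 to 104670476. Itgb5 lies on chromosome 16 from 33829665 to 33949338 and Itga9 on chromosome 9 from 118606690 to 118901003. These integrin genes are on the plus strand, and all 7 genes are annotated as protein coding.

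Replicate 2 repeated replicate 1 in both organs. The pair shared 1313 cell barcodes in the cochlea and 1633 in the vestibule, where other pairs of libraries shared at most 41, and their counts differed by less than sampling noise. They were therefore counted as 1 sample, and the values below are of replicates 1, 3, 4 and 5 (n = 4 per organ). The deposited totals of the libraries used ran from 2738036 to 26974948 UMIs, with replicate 3 the largest in both organs. It was not the deepest per cell. Its medians per kept cell were 2063 UMIs in the cochlea, against 3298 in replicate 4, and 2102 in the vestibule, against 2584 in replicate 5. Of the 17696 cells kept, 7272 were cochlear and 10424 vestibular. Classes were named from marker genes and should be read as "type I HC-like", "macrophage-like" and so on. A total of 2482 cells lay in 10 clusters that the markers did not name, and 622 lay in HC subclusters that also carried genes of other cells, called mixed here. The type I class held 1488 cells and the type II class 277. The OHC class held 80, the IHC class 38, and the macrophage class 328 cochlear and 285 vestibular cells. Each class named below carried at least 3 of its markers. For the vestibular HC types a marker counted as carried if any cell of the subcluster had it. These types therefore rest on Adam11 for type I and Sox2 for type II. The marker had to be found in at least 25% of a subcluster's cells, with the other under that share. The labels call both tissues sensory epithelium, and the named HC classes made up 118 of the cochlear and 1765 of the vestibular cells. Levels are given as CPM, the UMIs of a gene per 1000000 UMIs of that class in a library, and as mean ± SD over the libraries with at least 10 cells of the class. Because the classes were made from the expression of the same cells, the order of the classes is a description.

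Spp1 was the gene of this group with the clearest place in the ear: it was at its highest in type I HCs of the vestibule. Type I HCs had 37949, 42287, 33587 and 35198 CPM of Spp1 in replicates 1, 3, 4 and 5, a mean of 37255 ± 3808 CPM (SD, n = 4). Type II HCs of the same libraries had 5041, 6799, 8323 and 7382 CPM, a mean of 6886 ± 1381 CPM (SD, n = 4). Every type I value lay far above every type II value, and the ratio within a library was 5.64 on average, from 4.04 to 7.53.

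Spp1 transcripts made up 3.36 to 4.23% of all UMIs of type I HCs, and by UMI number Spp1 ranked first or second among all genes there in each of the 4 libraries. Type I HCs were 12.5 to 17.4% of the cells of a vestibular library and held 66.1 to 75.8% of its Spp1 UMIs. Type II HCs held 2.31 to 5.01%, and the mixed HC subclusters 15.4 to 23.6%. Most of the Spp1 mRNA counted in a vestibular library was therefore in 1 cell class.

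The difference between the HC types was tested across all genes on the UMIs summed per library and type (edgeR's quasi-likelihood test with Benjamini-Hochberg adjustment). The 7 genes had been left out of the genes used for clustering, but the types still come from other genes of the same cells. Spp1 was higher in type I HCs by 2.5 ± 0.23 on the log2 scale (SE; adjusted p = 5.77e-09 in edgeR, higher in 4 of 4 libraries). Of 7967 genes tested, 17.5% passed in either direction, 7.93% as higher and 9.56% as lower in type I HCs. The replicates are pools of mice, and the p-values measure the spread between these libraries. The test took the type I and type II sums of a library as separate samples, without their pairing.

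**Figure D1:**
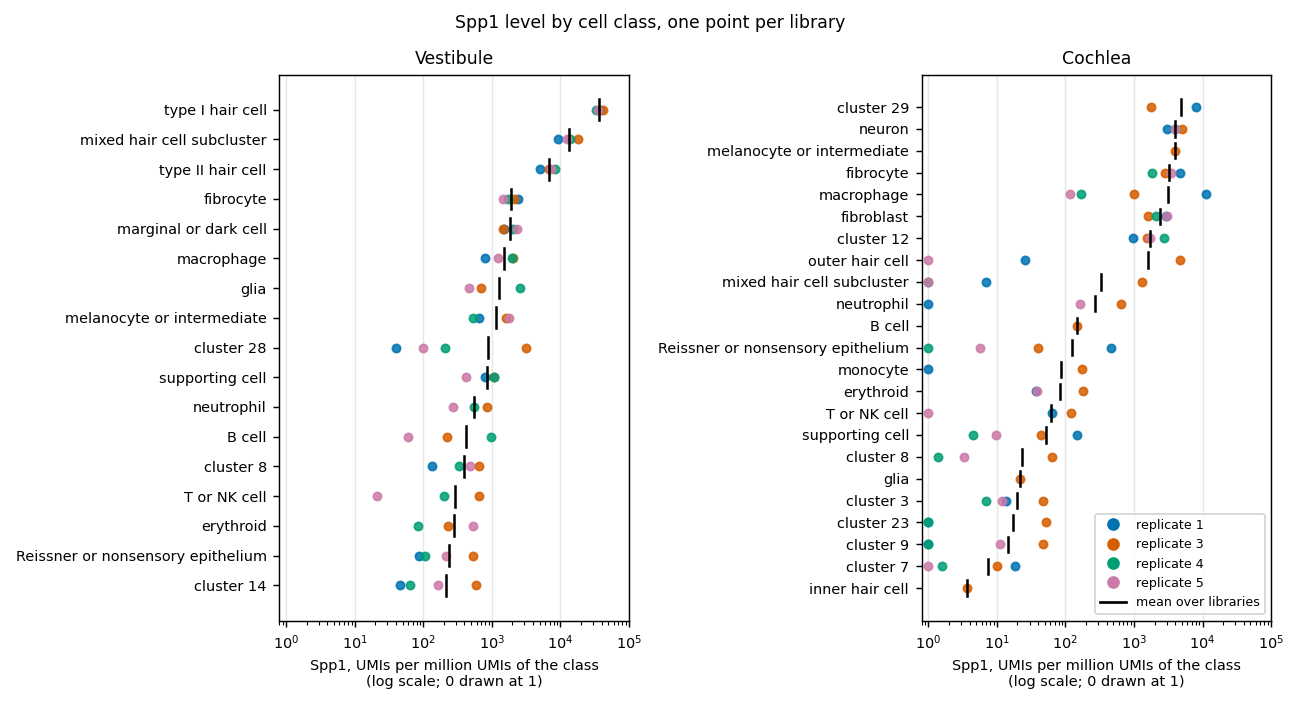
Spp1 level in CPM (log axis) by cell class in the vestibule and the cochlea, with 1 point per library, 0 drawn at 1 and a bar at the mean. The type I HC points sit between 33587 and 42287 CPM, above those of all other named classes of either organ, while cochlear macrophages spread from 118 to 11248 CPM.

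Within the type I class the level varied by subcluster but was high throughout. Subcluster 2 had 52297 ± 5453 CPM of Spp1, and subclusters 0 and 1 had means of 41257 and 39857 CPM. Subcluster 6, which had Ocm, the gene of the calcium buffer oncomodulin, among its leading genes, had 21341 ± 2473 CPM. Subcluster 7, with 73 cells, had 25886 CPM. The lowest of the 5 type I subclusters thus stayed above both type II subclusters, of which subcluster 5 had 8541 ± 2270 CPM and subcluster 8, with 62 cells, 2990 ± 178 CPM in the 2 libraries that held enough of it.

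Counted cell by cell, after each cell had been thinned to 1000 UMIs, type I HCs were uniformly positive. The median type I HC had 37 Spp1 UMIs per 1000, the tenth percentile was 17 and the ninetieth 70. Only 5 of 1488 type I HCs (0.336%) had none, and 97% had 10 or more. The 10% of type I HCs with the most Spp1 held 21.9% of the class's Spp1 UMIs, so the level did not rest on a few cells.

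Type II HCs varied more. Their median was 2 Spp1 UMIs per 1000, 90 of 277 cells (32.5%) had none, and 55 cells (19.9%) had 10 or more. The share with 10 or more was 11.6, 17.2, 25.8 and 25% in replicates 1, 3, 4 and 5, so that such cells were found in each library. As a group those 55 cells had 19624 CPM of Spp1, against 2900 CPM in the other 222, a gap that the cut on Spp1 itself makes. Markers of type I HCs went with this split, a cut chosen after the values were seen. Adam11, a type I marker, was found in 23.6% of the 55 cells and 2.25% of the others, and Bmp2, another, in 16.4 and 0.901%. Sox2, the transcription factor gene that marks type II HCs, was found in 85.5 and 80.2%. The median depths were 5439 and 4487 UMIs per cell, and 54 of the 55 cells lay in subcluster 5. The part of cells captured together, or of free RNA, in this difference was not tested.

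**Figure D2:**
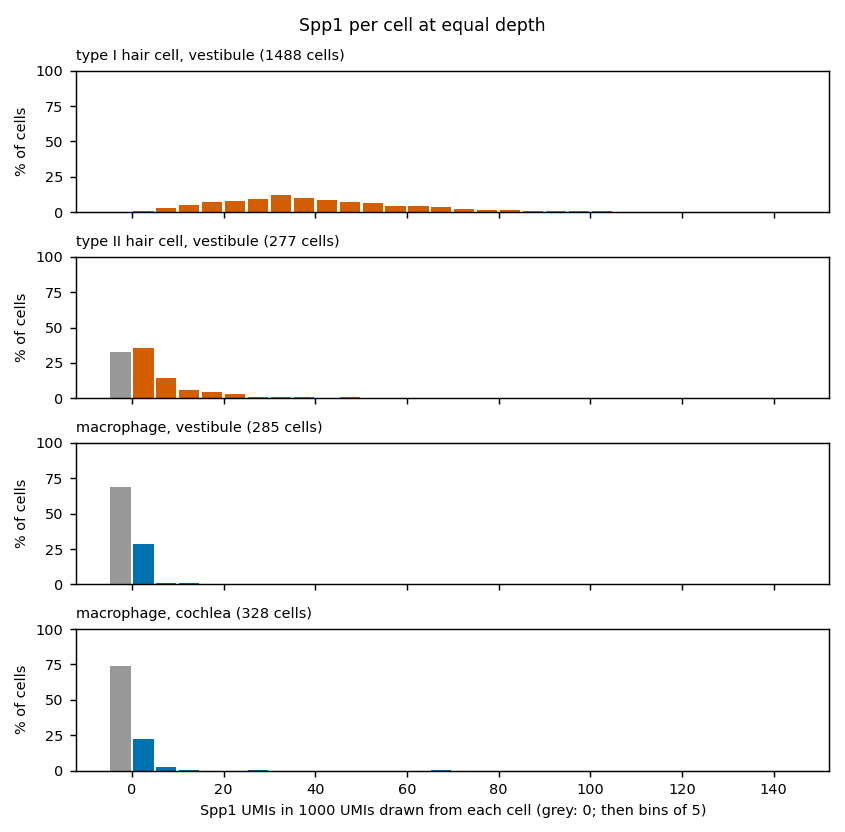
Percent of cells (vertical axis) by Spp1 UMIs per 1000 UMIs (horizontal axis, bins of 5, cells with none in grey), for type I HCs, type II HCs and the macrophages of both organs. Type I HCs centre on a median of 37, type II HCs on 2 with a tail of 55 cells at 10 or more, and the macrophage medians are 0.

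Beyond the HCs, Spp1 was counted in each vestibular class at a much lower level. Fibrocytes, the connective tissue cells under the epithelium, had 2378, 2084, 1710 and 1458 CPM, a mean of 1908 ± 406 CPM. Dark cells, which secrete potassium into endolymph, had 1500, 1462, 2027 and 2351 CPM, a mean of 1835 ± 430 CPM. In replicates 1 and 5, with 12 and 11 dark cells, a single cell held 40 of 49 and 97 of 105 of their Spp1 UMIs. Macrophages had 802, 2044, 1957 and 1228 CPM, a mean of 1508 ± 596 CPM. These 3 classes overlapped in their library values, and each library's type I HCs exceeded them. The ratio of type I HCs to macrophages was 28.5, from 17.2 to 47.3. Among the lower levels were B cells with 421, T or NK cells with 294 and erythroid cells with 280 CPM. The unnamed cluster 14 had 216 CPM, and nonsensory epithelium was at 0.603% of the type I level on average over libraries.

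Free RNA from broken cells is read in every droplet, and Spp1 is so abundant in type I HCs that its UMIs elsewhere need a yardstick. A set of 4 genes made by HCs, Pou4f3, Tmc1, Kncn and Gfi1, served for it, chosen after the values were seen because other HC genes were also made by other classes. Both are given as a percent of their level in type I HCs, pooled over libraries. Spp1 stood at 5.00% in fibrocytes, where the 4 HC genes stood at 1.29%. It stood at 4.74% against 1.59% in macrophages, 4.37% against 1.51% in dark cells and 3.58% against 1.81% in melanocytes. In these 4 classes the Spp1 percent was above that of the HC genes in 4 of 4 libraries, though the HC genes had few UMIs. These numbered 155 in fibrocytes, 26 in macrophages, 14 in melanocytes and 9 in dark cells. In the lowest library of macrophages and of dark cells the HC genes were at 0%, where any Spp1 UMI lies above. A second yardstick was the type I markers Adam11 and Bmp2 together. It stood closer to Spp1 in some of these classes, at 3.92% in fibrocytes and 2.47% in macrophages. It was at 1.69% in dark cells, from 9 UMIs, and 0.724% in melanocytes, from 5 UMIs. Among the melanocytes a single cell held 185 of the 670 Spp1 UMIs. The macrophage value came from few cells: without 16 cells that had 20 or more Spp1 UMIs, macrophages were at 0.933% for Spp1, 1.15% for the 4 HC genes and 2.48% for the second yardstick.

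In other classes Spp1 was close to the yardstick or below it. Supporting cells were at 2.47% for Spp1 and 4.34% for the HC genes, B cells at 0.698 and 0.773%, and erythroid cells at 0.715 and 0.762%. T or NK cells were at 1.12 and 0.967%, with Spp1 above the HC genes in 2 of 3 libraries. Whether these classes make Spp1 themselves was not tested. Type II HCs, which make the 4 HC genes themselves, were at 106% for them and 18.3% for Spp1, and at 5.37% for Adam11 and Bmp2.

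**Figure D3:**
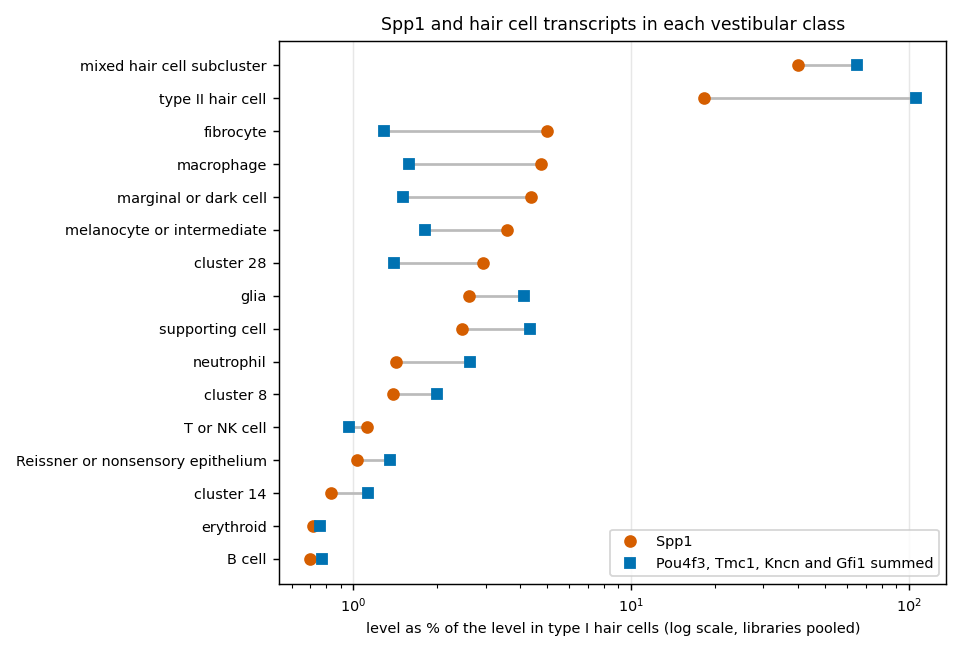
Spp1 in each vestibular class as a percent of its level in type I HCs (circles) beside the same percent for the sum of 4 other genes of HCs, Pou4f3, Tmc1, Kncn and Gfi1 (squares), on a log axis with libraries pooled. In fibrocytes, macrophages, dark cells, melanocytes and the unnamed cluster 28 the circle lies to the right of the square, and in supporting cells to its left.

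In the cochlea, Spp1 was found in neurons, in some connective tissue cells, in melanocytes and in 2 unnamed clusters. Neurons had 3053, 5011, 3950 and 4021 CPM of Spp1, a mean of 4009 ± 801 CPM, from 11 to 258 cells per library. Fibrocytes had 4723, 2865, 1858 and 3457 CPM, a mean of 3226 ± 1197 CPM. Fibroblasts had 2899, 1622, 2113 and 2983 CPM, a mean of 2404 ± 652 CPM. Their library values overlapped, so no order among these 3 classes is given. Among fibroblasts, cluster 4, led by Cemip, Inmt and Fst, had 7152 ± 2725 CPM. The other fibroblast clusters, 0 and 15, had 76.1 and 74.4 CPM, so the level of the class came from the 381 cells of cluster 4. Melanocytes had 3998 CPM in the 1 library with enough of them, and the unnamed clusters 29 and 12 had 4923 and 1737 CPM. The HC yardstick was not applied in the cochlea. At the other end, cochlear supporting cells had 51.7, T or NK cells 61.6 and B cells 146 CPM.

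Cochlear HCs, summed over IHCs and OHCs, had 25.7, 1245, 9.63 and 0 CPM of Spp1 in replicates 1, 3, 4 and 5. Vestibular HCs, summed over both types, had 31238, 35940, 28715 and 28386 CPM. The lowest vestibular library thus lay far above the highest cochlear one. Spp1 was higher in vestibular HCs (vHCs) than in cochlear HCs (cHCs) by 6.27 ± 0.95 on the log2 scale (SE; adjusted p = 3.05e-05 in edgeR), where 29.1% of 7537 genes passed in either direction, 16.8% as higher and 12.2% as lower.

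Replicate 3 stood apart in the cochlea, and its value came from few cells. In its OHC class, 4 cells with 99 to 134 Spp1 UMIs held 454 of 459. In its mixed subclusters 5 cells with 54 to 181 UMIs held 693 of 698. No other cochlear HC had more than 3. Of the 4 cells and of the 5, 3 each carried the type I marker Adam11 and none the OHC gene Slc26a5, which encodes the motor protein prestin. None of their barcodes was among the cells of vestibular replicate 3. Without cochlear replicate 3 the difference was 11.53 on the log2 scale. In the other 3 cochlear libraries, 3 Spp1 UMIs were counted among 281357, or 10.7 CPM. The exact 95% Poisson interval was 2.20 to 31.2 CPM. vHCs pooled over all 4 replicates, with replicate 3 among them, had 32458 CPM. The ratio of this to the cochlear value was 3044, with an interval of 1042 to 14761 that covers counting error only. It sets unlike sets of replicates side by side.

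Macrophages are the cells from which osteopontin is best known in inflammation, and they were compared between the organs. Vestibular macrophages had 802, 2044, 1957 and 1228 CPM and cochlear macrophages 11248, 993, 171 and 118 CPM of Spp1. The vestibular values came from 11, 164, 59 and 51 cells and the cochlear ones from 14, 279, 15 and 20. In cochlear replicates 4 and 5 they rested on 6 Spp1 UMIs each. The cochlear libraries lay both above and below the vestibular ones. The difference of −0.94 ± 0.99 on the log2 scale (SE, vestibule minus cochlea) did not pass (adjusted p = 0.768 in edgeR), where 0.664% of 1506 genes did, 0.598% as higher and 0.0664% as lower in the vestibule. It rested on cochlear replicate 1: without that library the difference was 1.63 (adjusted p = 0.397 in edgeR). With an SE of this size, equal levels in the organs are not shown.

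In both organs Spp1 in macrophages was concentrated in a few cells. In the cochlea 13 of 328 macrophages had 20 or more Spp1 UMIs and held 76.7% of the 1418 UMIs of the class. In the vestibule 16 of 285 held 84.2% of 1875. In cochlear replicate 1 a single cell held 608 of 615 UMIs, or 98.9%. That cell had 10973 UMIs in all, 74 of macrophage markers and none of the 4 HC genes. Not all of these cells were well marked as macrophages. Of the 16 vestibular cells, 6 had under 1 macrophage marker UMI per 1000 UMIs, a limit chosen after the values were seen, and at most 11 marker UMIs. These 6 held 757 Spp1 UMIs, or 40.4% of the vestibular class, and the one with the most had 548 Spp1 and 3 marker UMIs among 18224. None of the 13 cochlear cells was under that limit. Without all cells under it, 42 in the vestibule and 10 in the cochlea, pooled Spp1 went from 1833 to 1318 CPM in the vestibule and from 1513 to 1554 CPM in the cochlea. Among the 13 cochlear cells none carried an HC gene, and among the 16 vestibular ones 2 did. Without the 13 and 16 cells the macrophage level, pooled over libraries, was 388 CPM in the cochlea and 361 CPM in the vestibule. Most macrophages of either organ had little or no Spp1 mRNA.

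Cd44 is expressed by most leukocytes and on many epithelial and connective tissue cells, and anchors hyaluronan to the actin skeleton. Among cochlear classes its level was highest in neutrophils, with 828, 652 and 237 CPM in replicates 1, 3 and 5, a mean of 572 ± 304 CPM (n = 3). Close to it was cluster 23, with no class name and led by Lmo3, Rubie and Npnt, with 676, 391 and 465 CPM in replicates 1, 3 and 4, a mean of 511 ± 148 CPM (n = 3). These overlapped. In the vestibule neutrophils again had the highest mean, 154 ± 100 CPM (n = 3), from 269, 85 and 109 CPM, followed by T or NK cells with 95.3 and melanocytes with 77.5 CPM.

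Macrophages were not the main carriers of Cd44 mRNA here, with 29 ± 21.8 CPM in the vestibule and 56.1 ± 27.8 CPM in the cochlea. In type I HCs Cd44 was near the limit of detection. A total of 6 Cd44 UMIs were counted in 1488 type I HCs, or 1.03 ± 0.866 CPM. Type II HCs had 25 UMIs in 277 cells, or 18.9 ± 8.86 CPM. OHCs had none in 72 cells, which allows up to 13.5 CPM, and vestibular supporting cells none in 556 cells, which allows up to 1.57 CPM. Cd44 had too few UMIs in HCs and macrophages to enter any of the 3 tests.

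**Figure D4:**
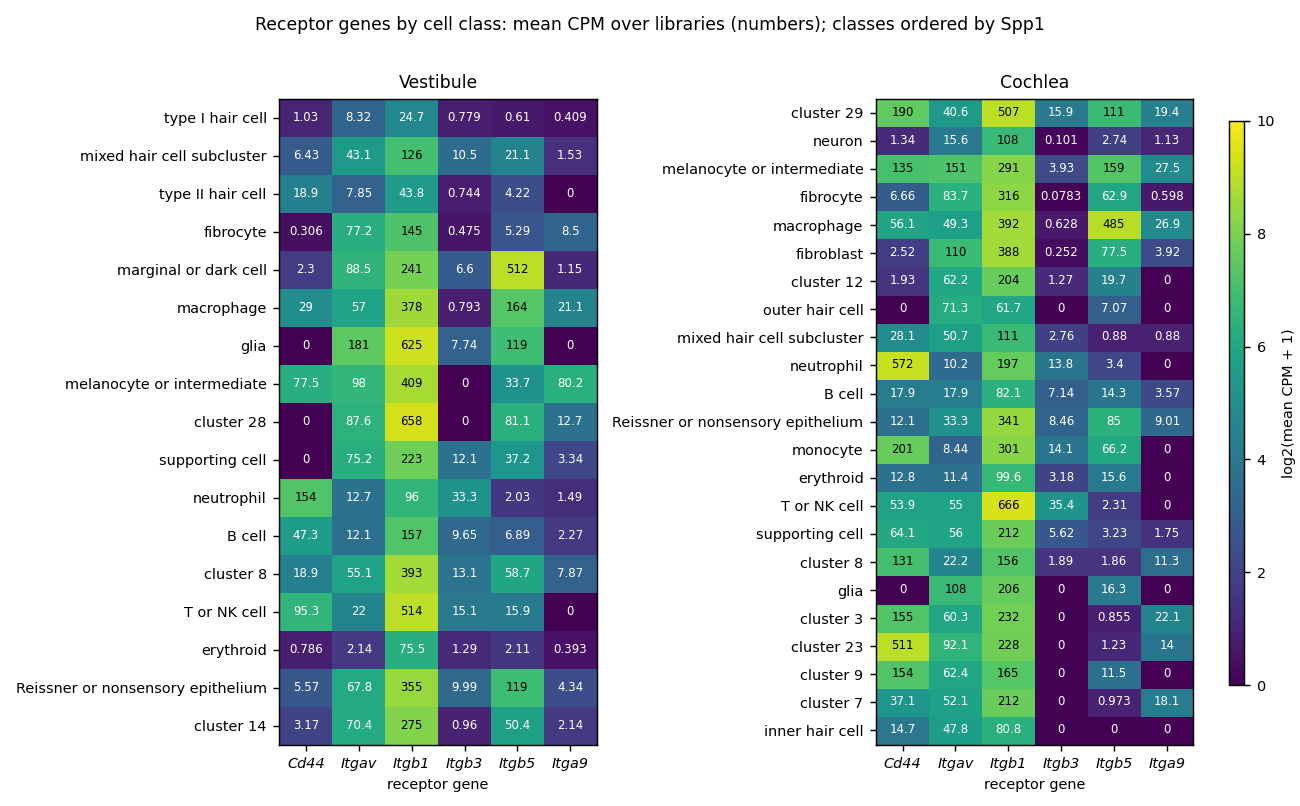
Mean level of the 6 receptor genes by cell class and organ, in CPM, with colour as log2(CPM + 1). The classes run from top to bottom by their Spp1 level, and the numbers are the means. Cd44 is strongest in neutrophils and cochlear cluster 23, Itgb5 in vestibular dark cells and cochlear macrophages, and type I HCs, in the top row of the vestibule, have low values of all 6.

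Itgb1 encodes the β1 chain, the partner of most integrin α chains, and was found in every class. In the vestibule cluster 28, an unnamed cluster led by Slc4a10 and Slc47a1, had a mean of 658 CPM and glia 625 CPM. Macrophages had 378 ± 148 CPM in the vestibule and 392 ± 82.4 CPM in the cochlea, and cochlear T or NK cells had 666 ± 280 CPM. Type I HCs, at 24.7 ± 7.47 CPM, had the lowest mean of all the vestibular classes measured, and macrophages exceeded them 15.7-fold.

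Between the HC types Itgb1 ran opposite to Spp1. Type I HCs had 14.0, 27.5, 31.3 and 26.1 CPM and type II HCs 24.3, 49.3, 51.1 and 50.6 CPM in replicates 1, 3, 4 and 5. Within each of the 4 libraries type II HCs were higher, by 1.78-fold on average and from 1.63- to 1.94-fold, though the ranges over libraries overlapped. The difference of −0.77 ± 0.27 on the log2 scale (SE, type I minus type II) just passed (adjusted p = 0.0489 in edgeR). It did not pass in DESeq2 (adjusted p = 0.160), without the filter on low counts (0.0726 in edgeR), with types set cell by cell (0.110 in edgeR) or without replicate 3, 4 or 5. With types set cell by cell and the mixed subclusters kept it was −1.79 (adjusted p = 9.26e-06 in edgeR).

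vHCs also had less Itgb1 than cHCs. They had 16.1, 31.4, 35.1 and 32.1 CPM, and cHCs 38.5, 75.8, 28.9 and 100.4 CPM, with 1 cochlear library inside the vestibular range. The cochlear values rested on 44 Itgb1 UMIs in all, the vestibular ones on 228. The difference was −1.20 ± 0.35 on the log2 scale (SE, vestibule minus cochlea; adjusted p = 0.0112 in edgeR). It did not pass without replicate 3 (0.232 in edgeR), without cochlear replicate 3 alone (0.248 in edgeR), without replicate 5 (0.0735 in edgeR) or in cells with under 10% mitochondrial UMIs (0.359 in edgeR). With the mixed subclusters counted as HCs it was −0.62 (adjusted p = 0.0381 in edgeR). Between macrophages of the organs it was 0.05 ± 0.29 (adjusted p = 0.972 in edgeR).

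Itgav encodes the αv chain, which pairs with β1, β3 or β5 to read the RGD motif. In the vestibule glia had 209, 116 and 218 CPM, a mean of 181 ± 56.4 CPM (n = 3). Melanocytes followed with 98.0, dark cells with 88.5 and fibrocytes with 77.2 ± 7.90 CPM. In the cochlea fibroblasts had 119, 96.8, 78.0 and 148 CPM, a mean of 110 CPM, and OHCs 77.0, 30.9 and 106 CPM. Type I and II HCs were both low, at 8.32 ± 2.46 and 7.85 ± 12.8 CPM.

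Itgav separated the HCs of the organs in the direction opposite to Spp1. vHCs had 8.68, 6.89, 4.31 and 13.9 CPM and cHCs 77.0, 43.3, 28.9 and 100.4 CPM. Every cochlear value was above every vestibular one. The cochlear values rested on 35 Itgav UMIs in 118 cells, with 13 cells in replicate 4 and no IHC in replicate 1. Itgav was lower in vHCs by −2.83 ± 0.44 on the log2 scale (SE; adjusted p = 3.75e-05 in edgeR). It passed in every alternative that could be fitted, with differences from −3.01 to −1.43. The organ difference of Itgav in HCs differed from that in macrophages by −2.89 ± 0.62 (SE; adjusted p = 0.00438 in edgeR, interaction term), and that of Spp1 by 7.33 ± 1.59 (adjusted p = 0.00514 in edgeR).

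**Figure D5:**
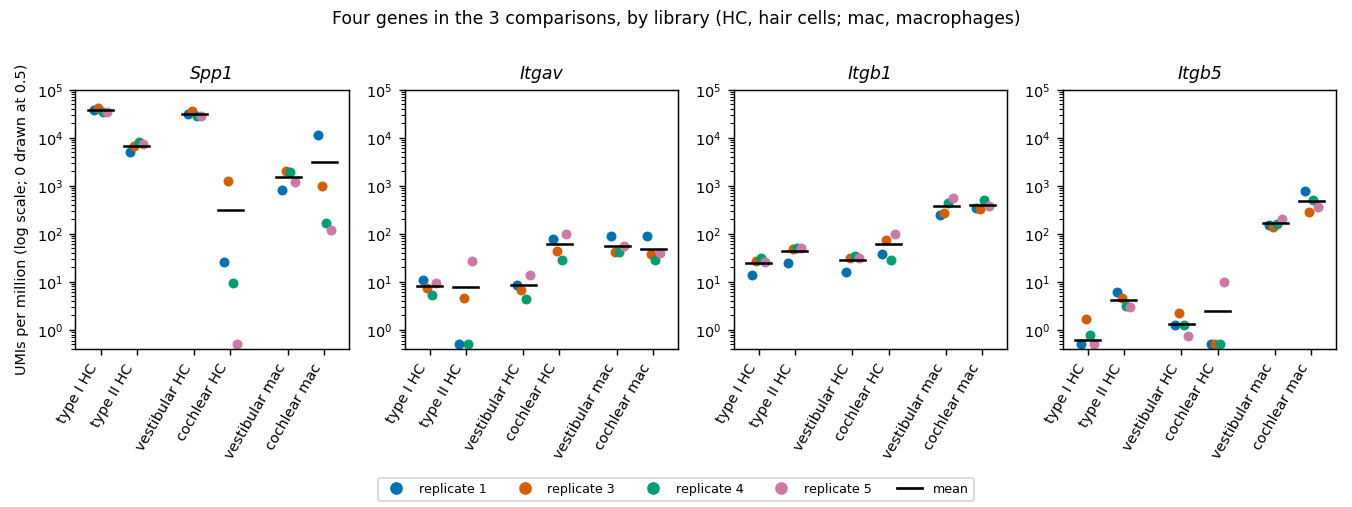
Levels in CPM by library of Spp1, Itgav, Itgb1 and Itgb5 (log axes, with 0 drawn at 0.5), for type I against type II HCs, vestibular against cochlear HCs and vestibular against cochlear macrophages. Spp1 and Itgav separate the HCs of the organs without overlap in opposite directions, and Itgb5 is higher in each cochlear macrophage library than in any vestibular one.

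Itgb5, whose β5 chain pairs with αv alone, had its highest means in vestibular dark cells and cochlear macrophages. Vestibular dark cells had 521, 469, 768 and 291 CPM, a mean of 512 ± 197 CPM. Vestibular macrophages had 156, 140, 159 and 203 CPM, a mean of 164 ± 27.0 CPM, below every dark cell value. Cochlear macrophages had 786, 285, 513 and 355 CPM, a mean of 485 ± 223 CPM, with no overlap with the vestibular ones. Their libraries held 14, 279, 15 and 20 of these cells. The difference between macrophages of the organs, −1.45 ± 0.32 on the log2 scale (SE, vestibule minus cochlea), did not pass in edgeR (adjusted p = 0.0744). It passed in DESeq2 (adjusted p = 0.0379). In type I HCs 6 Itgb5 UMIs were counted in 1488 cells.

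Itgb3 and Itga9 were rare. Itgb3, whose β3 chain is the partner of αv on osteoclasts and of αIIb on platelets, reached 33.3 ± 14.0 CPM in vestibular neutrophils, from 44 UMIs. Cochlear T or NK cells had 35.4 CPM, but from 7 UMIs, and macrophages had 2 UMIs in each organ. Itga9, whose α9 chain pairs with β1 alone, was highest in vestibular melanocytes, with 118, 37.4, 61.5 and 103 CPM from 26 UMIs, a mean of 80.2 ± 37.3 CPM. Vestibular macrophages had 21.1 ± 9.28 CPM and cochlear ones 26.9 ± 26.0 CPM. Type I HCs had 2 Itgb3 and 3 Itga9 UMIs in all, and neither gene entered a test.

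A working integrin needs both chains in the same cell. Itgav and Itgb5 were counted together in 20 of 285 vestibular macrophages (7.02%, exact 95% interval 4.34 to 10.6%) and in 17 of 123 dark cells (13.8%, interval 8.26 to 21.2%). After thinning to 1000 UMIs the shares were 2.11 and 2.44%. They were counted together in 0 of 1488 type I HCs (interval up to 0.248%), at a median depth of 3955 UMIs against 2078 in macrophages and 1685 in dark cells. Itga9 and Itgb1 were counted together in 16 vestibular macrophages (5.61%). These shares count captured mRNA and move with depth, so a cell without both UMIs is not shown to lack either chain.

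Among 39 other genes of the osteopontin pathway, 9 had enough counts to be tested between the HC types. Of these 2 were higher in type I HCs and none lower, where 7.93% of all genes tested were higher and 9.56% lower. Their median was 0.23 on the log2 scale against 0.01 over all genes tested. Tnc, the gene of tenascin-C, a matrix protein of the calyx region that integrins also bind, had 125, 113, 108 and 99.4 CPM in type I and 73.0, 18.5, 19.2 and 8.93 CPM in type II HCs. It was higher by 2.32 ± 0.29 on the log2 scale (SE; adjusted p = 1.4e-06 in edgeR). Ezr, the gene of ezrin, which links CD44 to actin, was higher by 1.04 ± 0.24 (adjusted p = 0.00253 in edgeR), at 63.4 against 31.3 CPM. It did not keep this when types were set cell by cell with the mixed subclusters kept (−0.095, adjusted p = 0.732 in edgeR). None of the 9 enzymes and proteases that process osteopontin and none of the 5 other integrin chains that bind it had enough counts in HCs.

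Between vHCs and cHCs 9 of the 39 were tested, of which 3 were higher and 1 lower in vHCs, where 16.8% of all genes tested were higher and 12.2% lower. Tnc had 114, 96.4, 91.2 and 77.3 CPM in vHCs, while 1 UMI was counted in cHCs of all 4 libraries. Its fitted difference, which at so few cochlear UMIs depends on the prior count, was 5.76 ± 0.61 (SE, log2; adjusted p = 2.7e-07 in edgeR). Vcl, the gene of vinculin, was higher by 1.94 (adjusted p = 8.54e-05 in edgeR) and Tln1, the gene of talin, which activates integrins, by 1.38 (adjusted p = 0.0328 in edgeR). Itgb1bp1, whose product binds the β1 tail, was lower by −0.91 (adjusted p = 0.0237 in edgeR). Tln1 did not pass in 7 and Itgb1bp1 in 6 of 12 alternatives, with adjusted p up to 0.882 and 0.172 in edgeR or DESeq2. Between the macrophages 5 were tested and none passed in edgeR.

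The genes whose levels followed those of Spp1 most closely over 28 class profiles of both organs were Ankrd26 (Pearson r = 0.808), Bmp2 (0.748), Qtrt1 (0.720), Cped1 (0.707) and Fam161a (0.707), among 15915 genes. For Cd44 they were Vasp (0.818), Arpc3 (0.800) and Hvcn1 (0.786). The profiles share libraries, depth and free RNA, and the correlations are a description.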

How the data were processed

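Per the labels, libraries were made with a droplet kit that tags the 3′ end of mRNA with UMIs. The authors deposited raw UMI counts per gene and barcode. The submitters' notes name Cell Ranger 6.1.2, Seurat and mm10, while the file headers of replicates 1 and 2 name Cell Ranger 5.0.1. Replicate 2 repeated replicate 1 and was left out.

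Cells with at least 200 genes, 1000 UMIs and at most 25% mitochondrial UMIs were kept. Doublets were neither called nor removed. Cells of each organ were clustered in Seurat 5.3.0 (2000 variable genes, 30 components, resolution 1, and 0.5 for HCs), with the 46 genes of the member and pathway lists left out. A class needed at least 3 markers, which for the vestibular HC types any cell of the subcluster could supply. The rule for mixed subclusters was set after the clusters were seen. The members and gene lists were chosen with earlier results of these data known.

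UMIs were summed per library and class, where a sum needed 5 cells, and the sums went into edgeR 4.0.16 (quasi-likelihood, TMM, filterByExpr), with a threshold of 0.05 on the adjusted p. DESeq2 1.42.0 was an alternative. The tests were tried on simulated data first. Named genes were the 7 members, the 5 and 3 genes most like Spp1 and Cd44 in profile, and up to 3 pathway genes per direction past the threshold. Type I and II HCs of 1 number came from 1 library, and their deviations correlated within each number (r = 0.187 to 0.284), so these are paired. The main test did not use this pairing, and a replicate block was an alternative. The labels tie cochlear and vestibular libraries by number alone, and libraries of the same number also have the same Cell Ranger version in their headers. Intervals cover counting error only.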

Additional observations from a re-analysis of the deposited data

Results flagged for a closer look

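Of 25 groups of 4 libraries looked at, 3 had a library far from the others, where chance gives about 1 in 20 groups. Spp1 in cochlear macrophages was 11248 CPM in replicate 1, above the other 3 libraries, and 1 cell held most of it. Spp1 in cHCs was 1245 CPM in replicate 3, above the others, and rested on 4 cells of the OHC class. Itgb1 in type II HCs was 24.3 CPM in replicate 1, below the others. That library was also the lowest for Itgb1 in type I HCs, vestibular macrophages and dark cells, at 14.0, 245 and 122 CPM. This did not hold in every class, as vestibular melanocytes had 474 CPM in it.

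The difference between the organs was not the same in HCs as in macrophages for 2 members, by a test of the difference itself (edgeR, 4473 genes tested, of which 301 passed). For Spp1 the organ effect differed by 7.33 on the log2 scale and for Itgav by −2.89. For Itgb1 it was −1.20 (adjusted p = 0.135 in edgeR) and for Itgb5 1.42 (adjusted p = 0.658 in edgeR), which did not pass.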

How the results depend on the processing

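Spp1 kept its direction and passed in all 12 alternatives between HC types (1.77 to 2.65, log2) and all 12 between HCs of the organs (5.73 to 11.53), as Itgav did in the 11 that gave a value. Under the mitochondrial limit of 10% Itgav did not pass the filter, and DESeq2 gave Spp1 in macrophages no adjusted p. Between HC types, leaving out 1 replicate gave 391 to 668 genes higher and 464 to 838 lower in type I HCs, and types set per cell with mixed subclusters kept gave 1073 and 1558, with Ezr at −0.095. Itgb1 was −0.83 to −0.73 without 1 replicate and −1.79 with the types set per cell and mixed subclusters kept. Between HCs of the organs, leaving out 1 replicate gave 876 to 1496 genes higher and 523 to 1121 lower in vHCs, and the mitochondrial limit of 10% gave 793 and 406. In macrophages, genes higher and lower in the vestibule numbered 20 and 5 in DESeq2, 111 and 35 with no filter, 4 and 0 under the mitochondrial limit, and 0 to 24 and 0 to 5 without 1 replicate. Counting cochlear cluster 29 as macrophages gave 2 lower. Spp1 there turned from −0.94 to 1.63 without cochlear replicate 1, and ran from −1.5 to 1.79 without 1 replicate. Itgb1 there was −0.22 to 0.14 without 1 replicate and −0.22 with cluster 29. The mean of single-cell CPM moved Spp1 to 708 in vestibular macrophages and 1159 in dark cells, Cd44 to 890 in cochlear neutrophils and Itgb5 to 201 in vestibular macrophages. The cause of these changes was not tested.

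With the replicate block, Spp1 was 2.52 between HC types, where no call on a named gene changed. Between the organs, where the labels tie samples by number alone, Tln1 no longer passed with the block (adjusted p = 0.0633 in edgeR). In macrophages the block turned Spp1 to 1.14 and Itgb1 to −0.053. Deviations of same-numbered libraries correlated at 0.0336 to 0.132 in HCs and −0.0288 to 0.146 in macrophages. The highest correlation with another number was −0.0112 to 0.0217 in HCs and −0.0438 to 0.0475 in macrophages. The same number was the higher in each replicate, except in replicate 1 of macrophages. In type I HCs, Cd44, Itgb3, Itgb5 and Itga9 had 2 to 6 UMIs each, too few for a test, where 3 UMIs in the class correspond to 0.503 CPM.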

Other observations

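Cochlear cluster 29 had no class name, because its markers were those of both macrophages and osteoclasts. Its leading genes included Mmp12, Saa3, Fabp4, Atp6v0d2 and Ctsk, of which Atp6v0d2 and Ctsk encode a proton pump subunit and the collagen-cutting protease of osteoclasts. It held 57 cells. Spp1 was 8052 CPM in its 15 cells of replicate 1 and 1793 CPM in its 36 cells of replicate 3, the libraries with enough cells. Its receptor genes were also counted: Itgb1 at 507 ± 4.36, Cd44 at 190 ± 28.8 and Itgb5 at 111 ± 9.0 CPM (SD, n = 2). Itgb3 had 13 UMIs, all in 1 of these libraries. Cd44 and Itgb1 were counted in the same cell in 35 of 57 cells (61.4%), at a median depth of 10107 UMIs, and in 3.51% after thinning to 1000 UMIs.

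The 511 mixed vestibular HCs had 13438 ± 3749 CPM of Spp1 (n = 4), between the type I and type II levels and overlapping neither.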
